A study of Homo sapiens with 6 samples.

Results

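The genes described here are 10 genes of MHC class I antigen processing, namely B2M, TAP1, TAP2, TAPBP, PSMB8, PSMB9, ERAP1, ERAP2, NLRC5 and HLA-E. Every probe set whose platform annotation gave exactly 1 symbol, and that symbol one of the 10, was kept, without regard to its values. This gave 27 probe sets for 10 of 10 genes, among 41091 probe sets for 19775 genes with a single symbol. The cells were MCF-10A, a nontransformed immortalized line of human breast epithelium. Their mRNA was hybridized to Affymetrix U133 Plus 2.0 arrays, 3 of control cells and 3 of cells carrying a lentivirus that encodes MBD2, a protein that binds methylated CpG sites. All cells grew in the same mammary epithelial medium, the virus was packaged in HEK293 cells, and the labels give no time after infection. The labels call the treatment MBD2 transfection, and the series' design text calls the controls non-infected cells and the replicates technical, whereas the study's methods give an empty virus as the control and biological replicates. The p-values below therefore measure only the spread between these arrays, which may be technical, and the effect of infection itself cannot be told apart from that of MBD2 if the controls were not infected.

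MHC class I molecules carry short peptides from inside a cell to its surface, where CD8+ T cells and natural killer cells read them. Proteasomes cut proteins into peptides, the TAP transporter moves the peptides into the endoplasmic reticulum, aminopeptidases trim them, and tapasin helps them onto a heavy chain held by beta-2-microglobulin. Many of the genes are induced by interferon, and NLRC5 activates several of their promoters as part of a complex that also holds RFX, CREB and NF-Y proteins. Epithelial cells carry the pathway at all times, and its loss is known from breast and other carcinomas.

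The MBD2 probe set with the highest signal gave log2 values of 8.92, 9.03 and 9.68 on control arrays 1, 2 and 3 and 12.17, 11.72 and 12.50 on MBD2 arrays 1, 2 and 3, a log2 fold change of 2.92 (standard error 0.28, limma adjusted p = 0.0157). This call was lost when control array 1, control array 2 or MBD2 array 3 was dropped, with limma adjusted p-values of 0.0957, 0.107 and 0.0828 and log2 fold changes of 2.78, 2.83 and 2.73. The remaining 3 probe sets of MBD2 differed by -0.08, -0.03 and 0.11. The arrays of a group were unequally alike. Between control arrays 1 and 2 only 5 genes differed by more than 2-fold and between MBD2 arrays 2 and 3 only 95, against 1572 between control arrays 1 and 3 and 2877 between MBD2 arrays 1 and 2. MBD2 arrays 2 and 3 also had lower hybridization controls, 9.72 and 9.79 against 10.7 to 11.1 on the other arrays, and a median of 30 G2/M genes 1.67 and 1.47 log2 units above the control mean, against -1.04 to 0.55 on the others. Basal epithelial markers were high, with KRT14 between 13.37 and 14.37 on every array and a mean of 6 measured markers of 9 listed of 12.4 to 13.3 in control and 12.2 to 12.7 in MBD2 arrays. Of these 6, none passed, 5 had lower means in the MBD2 group, 3 of them at an unadjusted limma p under 0.05, and the median log2 fold change was -0.49. Of all genes, each at its highest probe set, 9.79% were lower at that unadjusted p. Of 14 leukocyte markers 12 were measured, and their mean level was 5.46 to 5.52 in control and 5.25 to 5.37 in MBD2 arrays, with PTPRC, the pan-leukocyte CD45 gene, at 3.50 to 4.03 in its highest probe set. The mean of 9 fibroblast markers was 6.64 to 7.33 in control and 6.64 to 8.51 in MBD2 arrays, with the highest on MBD2 array 1, and the mean of 8 endothelial markers lay between 4.56 and 4.67 on all 6. The leukocyte marker CD14 was measured at 10.07, 9.88 and 10.79 in control arrays and at 8.27, 6.70 and 6.57 on the MBD2 arrays. The part of these differences between arrays in the results below was not tested. In a bulk sample fewer cells that express a gene and less RNA of it per cell cannot be told apart.

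Of the 27 probe sets, that of the immunoproteasome gene PSMB9 had the highest log2 fold change between MBD2 and control arrays, 1.09, and one of the transporter gene TAP2 the lowest, -0.93. TAP1, HLA-E and the 3 B2M probe sets also had lower means in the MBD2 group, ERAP1 had probe sets in both directions, and PSMB8, TAPBP, ERAP2 and NLRC5 differed by at most 0.29. None of the 27 passed the test, set at a limma adjusted p under 0.05 over all 41091 probe sets and at least a 1.5-fold difference, which 1.88% of all probe sets did. At an unadjusted p under 0.05, 3 of the 27 were lower and 3 higher in MBD2 arrays, beside 8.05% and 8.49% of all probe sets. In 2 probe sets every MBD2 array was below every control array, and in 3 every MBD2 array was above, beside 12.3% and 10.4% of all probe sets. These shares lie near those of all probe sets. The 27 log2 fold changes had a median of -0.10, beside -0.00 over all probe sets, and 16 were negative and 11 positive. Of the 27, 5 were near background on every array, that is, within 0.5 log2 units of the highest value of controls for a transcript that was not added (3.67), and 20 had a mean of at least 5.

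**Figure D1:**
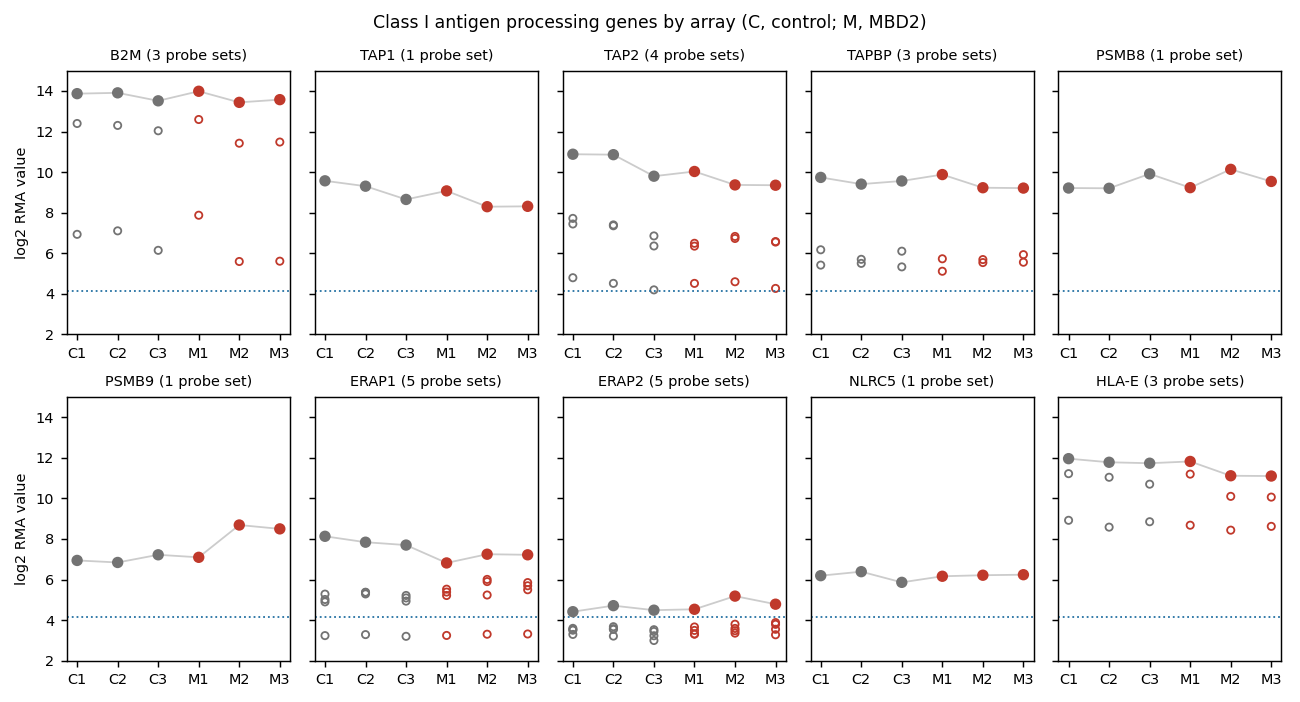
Log2 RMA value (vertical axis) of every probe set of the 10 genes on each array (horizontal axis, C1 to C3 for control and M1 to M3 for MBD2). Filled points joined by a line show the probe set of each gene with the highest mean. Open points show its other probe sets. The dotted line lies at 4.17, below which a value was counted as near background. The B2M and HLA-E probe sets with the highest signal lie at 13.44 to 13.98 and 11.10 to 11.96, PSMB9 is higher on M2 and M3 than on the other 4, and ERAP2 stays at or below 5.19.

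The count depended on which arrays were used. Without MBD2 array 1, the MBD2 array that differed from the other 2, 4 probe sets fell and 3 rose by the same rule, beside 4.68% and 8.8% of all probe sets. The MBD2 side of that fit is MBD2 arrays 2 and 3 alone, which are nearly identical, so it adds little to the error. With control array 3 also left out, 9 fell and 3 rose, beside 9.96% and 15.5%. That last fit sets a pair of nearly identical control arrays against a pair of nearly identical MBD2 arrays, so its error is the small spread within those pairs. MBD2 array 1 was also the array with high fibroblast markers, whose median stood 1.56 log2 units above the control mean there and at -0.21 and -0.18 on MBD2 arrays 2 and 3, and their part in these counts was not tested. In 9 of the 27 probe sets, or 33.3%, MBD2 array 1 lay at least 1.5-fold from the mean of MBD2 arrays 2 and 3, which held for 25.6% of all probe sets. In 6, or 22.2%, control array 3 lay as far from the mean of control arrays 1 and 2, beside 17.8%.

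**Figure D2:**
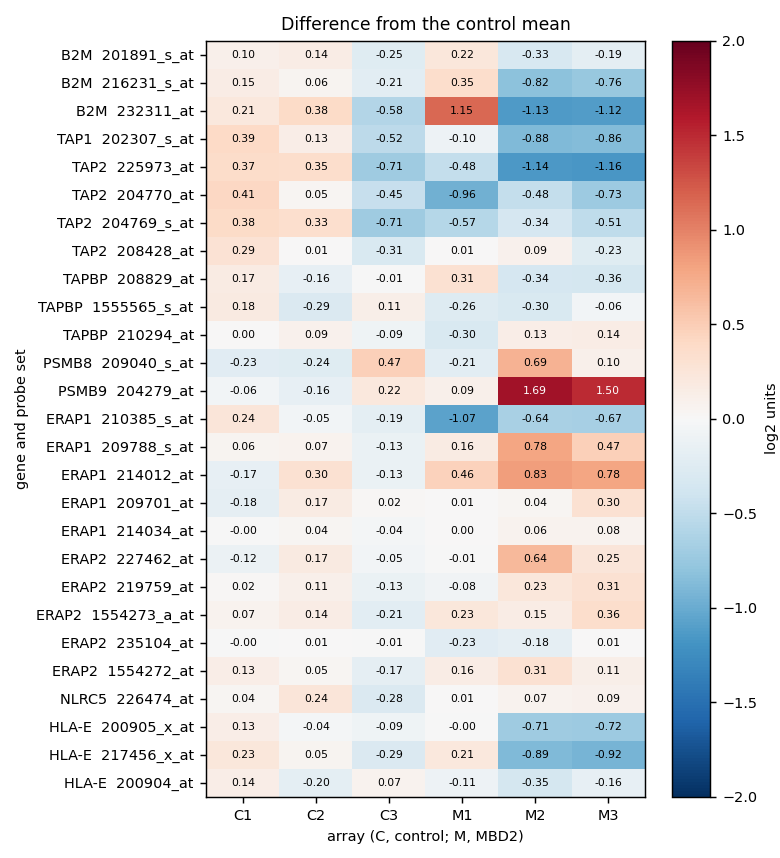
Difference of each array (columns; C1 to C3, control; M1 to M3, MBD2) from the mean of the control arrays, in log2 units, for the 27 probe sets (rows), red for higher and blue for lower. Every B2M and HLA-E row is below the control mean on M2 and M3, the 3 upper TAP2 rows are below it on C3 and on all 3 MBD2 arrays, and PSMB9 stands 1.69 above it on M2 and 0.09 above it on M1.

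Peptide generation was represented by PSMB8 and PSMB9, which encode the interferon-inducible proteasome subunits LMP7 and LMP2. The single PSMB9 probe set read 6.94, 6.84 and 7.22 on control arrays 1, 2 and 3 and 7.10, 8.69 and 8.50 on MBD2 arrays 1, 2 and 3. MBD2 arrays 2 and 3 were thus above all controls, and MBD2 array 1 lay within their range. The control mean of 7.0 ± 0.20 (SD, n = 3) and the MBD2 mean of 8.09 ± 0.87 (SD, n = 3) gave a 2.13-fold difference that did not pass (log2 fold change 1.09, standard error 0.43, 95% interval 0.04 to 2.15, limma adjusted p = 0.288). Without MBD2 array 1 PSMB9 rose by 1.59 log2 units (limma adjusted p = 0.00555). Only the nearly identical MBD2 arrays 2 and 3 stand for MBD2 in that fit. When single arrays were dropped, the adjusted p ranged from 0.00555 to 0.660.

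PSMB8 read 9.22, 9.20 and 9.91 on the controls and 9.23, 10.14 and 9.54 on the MBD2 arrays, so the groups overlapped. Its log2 fold change was 0.19 with an interval of -0.55 to 0.93 (limma adjusted p = 0.804). Control array 3 was the highest of the controls, 0.70 above the mean of the other pair, and without control array 3 and MBD2 array 1 PSMB8 was 0.63 higher, past the threshold.

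Each inducible subunit takes the place of a constitutive one, and the difference of the pair within an array is free of that array's overall scale. PSMB9 minus PSMB6, the constitutive subunit that PSMB9 replaces, was -4.50, -4.69 and -4.44 log2 units in control arrays and -4.09, -2.85 and -2.87 in MBD2 arrays. Every MBD2 array was above every control array, with a change of 1.27. An exact two-sided permutation test gave p = 0.1, the smallest that 3 against 3 arrays allow, and 0.175 after Benjamini-Hochberg adjustment over the 7 pairs compared. PSMB6 itself differed by -0.18 (limma adjusted p = 0.550). PSMB8 minus PSMB5 changed by 0.12 (exact permutation p = 0.6) and PSMB10 minus PSMB7, the remaining pair of inducible and constitutive subunits, by -0.10 (exact permutation p = 0.9), and both overlapped between the groups.

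Transport was represented by TAP1 and TAP2, which encode the partner chains of the peptide transporter. The TAP1 probe set read 9.57, 9.31 and 8.65 on the controls and 9.07, 8.30 and 8.31 on the MBD2 arrays. The groups overlapped, since MBD2 array 1 was above control array 3. The means of 9.18 ± 0.47 (SD, n = 3) and 8.56 ± 0.44 (SD, n = 3) gave a log2 fold change of -0.62 (standard error 0.32, interval -1.40 to 0.17, limma adjusted p = 0.404), and without control array 3 and MBD2 array 1 TAP1 fell by 1.13.

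TAP2 had 4 probe sets. The one with the highest signal read 10.88, 10.86 and 9.80 on the controls and 10.03, 9.37 and 9.35 on the MBD2 arrays. Control array 3 lay 1.07 below the mean of the other controls and below MBD2 array 1. The means of 10.51 ± 0.62 (SD, n = 3) and 9.58 ± 0.39 (SD, n = 3) differed by -0.93 (standard error 0.36, interval -1.80 to -0.06, limma adjusted p = 0.276), the lowest fold change of the 27 probe sets. A second TAP2 probe set read 7.72, 7.36 and 6.86 on the controls and 6.35, 6.83 and 6.58 on the MBD2 arrays, lower in every MBD2 array by a difference of -0.72 (interval -1.34 to -0.11, limma adjusted p = 0.234). Another read 7.44, 7.40 and 6.36 against 6.49, 6.73 and 6.55, a difference of -0.48 that became a fall of 0.83 without control array 3 (limma adjusted p = 0.0487). The fourth, between 4.20 and 4.80 on all arrays, differed by -0.04. Without control array 3 and MBD2 array 1, the first 3 TAP2 probe sets fell by 1.51, 0.83 and 0.78. TAP1 minus TAP2 changed by 0.31 within arrays (exact permutation p = 0.1), and by -0.07 with the mean of all TAP2 probe sets, so the probe set chosen set the sign.

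**Figure D3:**
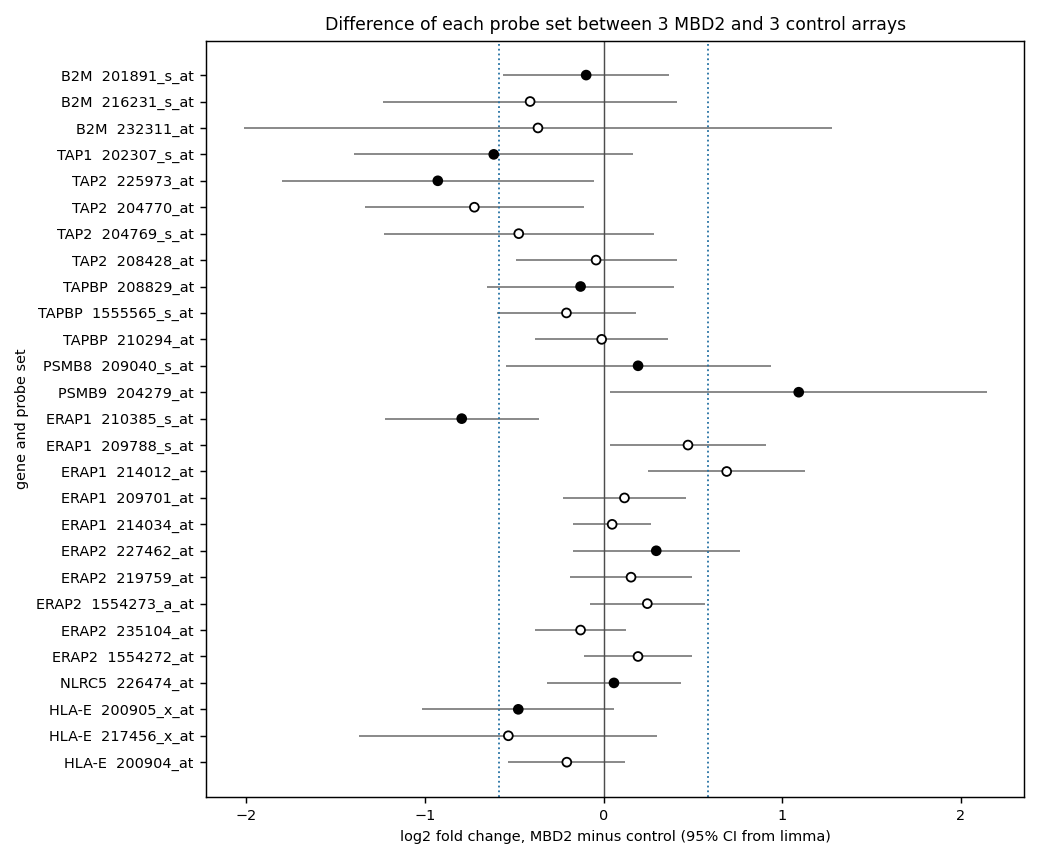
Log2 fold change, MBD2 minus control (horizontal axis), of the 27 probe sets (vertical axis) with 95% intervals from limma, filled points for the probe set with the highest mean of each gene, and dotted lines at a 1.5-fold difference either way. PSMB9 at 1.09 and TAP2 at -0.93 are the ends of the range, and the ERAP1 probe sets lie on both sides of 0.

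TAP1 and PSMB9 are immediate neighbours that start on opposite strands with 487 bases between the starts, and PSMB8 and then TAP2 follow on the other side of TAP1 on chromosome 6. The TAP1 and PSMB9 windows are shown because the genes share this stretch, the TAP2 window because TAP2 had the lowest fold change, and the B2M window because B2M is the partner of every class I heavy chain. Each is the 250 bases before the RefSeq start site in GRCh38.p14, read 5′ to 3′ on the gene's strand: TAP1 chr6:32853705-32853954 (minus), PSMB9 chr6:32853942-32854191 (plus), TAP2 chr6:32838740-32838989 (minus) and B2M chr15:44711267-44711516 (plus). Capitals mark the NF-Y core CCAAT, the CREB-type core TGACG, the IRF core GAAANNGAA and the SP1-type core GGGCGG on either strand, and no match of one overlapped a match of another.
TAP1: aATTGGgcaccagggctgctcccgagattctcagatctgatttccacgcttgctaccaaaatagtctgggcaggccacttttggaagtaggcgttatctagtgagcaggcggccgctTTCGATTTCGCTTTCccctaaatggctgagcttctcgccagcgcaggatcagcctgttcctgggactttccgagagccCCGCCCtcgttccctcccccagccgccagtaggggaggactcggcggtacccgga
PSMB9: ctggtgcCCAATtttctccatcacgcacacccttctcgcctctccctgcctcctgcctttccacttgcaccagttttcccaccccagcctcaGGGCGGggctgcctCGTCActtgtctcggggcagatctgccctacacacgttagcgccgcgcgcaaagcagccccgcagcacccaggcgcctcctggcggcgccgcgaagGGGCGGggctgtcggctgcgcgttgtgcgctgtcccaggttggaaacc
TAP2: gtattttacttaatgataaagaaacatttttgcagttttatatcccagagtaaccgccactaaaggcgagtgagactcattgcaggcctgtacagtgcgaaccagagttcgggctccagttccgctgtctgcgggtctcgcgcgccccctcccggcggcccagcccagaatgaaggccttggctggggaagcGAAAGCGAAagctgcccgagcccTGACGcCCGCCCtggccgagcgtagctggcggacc
B2M: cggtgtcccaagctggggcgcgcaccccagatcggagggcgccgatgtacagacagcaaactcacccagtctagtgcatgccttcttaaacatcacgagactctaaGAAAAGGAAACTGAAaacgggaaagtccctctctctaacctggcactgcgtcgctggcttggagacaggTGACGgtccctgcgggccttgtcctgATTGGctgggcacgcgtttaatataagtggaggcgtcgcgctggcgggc
The TAP1 and PSMB9 windows share 13 bases, and the CCAAT in both is the same site. RefSeq promoter entries were found for 8 of the 10 genes, with 12 windows in all, and not for HLA-E and NLRC5. GAAANNGAA was present in 5 of the 12 windows (of B2M, ERAP2, TAP1, TAP2 and TAPBP), beside 6.88% of 35116 windows of all genes. TGACG was in 4 of the 12 (B2M, PSMB8, PSMB9 and TAP2), beside 21.2%, CCAAT in 4 (B2M, ERAP1, PSMB9 and TAP1), beside 32.0%, and GGGCGG in 5 (PSMB9, TAP2, TAPBP and both TAP1 windows), beside 42.6%. A match is a run of letters and not a shown binding site. The 4 windows printed held 16, 21, 19 and 18 CpG sites, the 12 windows 0 to 25 with a median of 12.5, and all windows a median of 11. No methylation was measured on these arrays.

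Across the 487 bases, TAP1 was low and PSMB9 high on MBD2 arrays 2 and 3. TAP1 minus PSMB9 was 2.63, 2.46 and 1.43 log2 units in control arrays and 1.98, -0.39 and -0.19 in MBD2 arrays. The groups overlapped through MBD2 array 1, which was above control array 3. The change of -1.71 had an exact two-sided permutation p of 0.2, or 0.28 after adjustment over the 7 pairs, and ranged from -2.46 to -1.28 when single arrays were dropped.

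**Figure D4:**
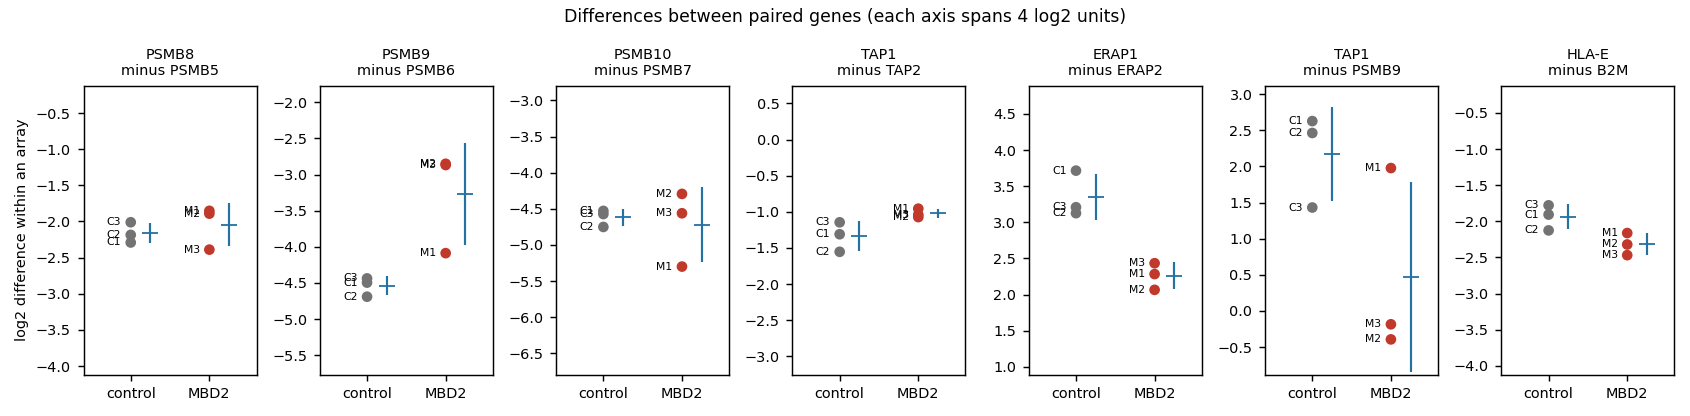
Log2 difference between paired genes within each array (vertical axis, 4 log2 units in every panel) for control and MBD2 arrays, 1 point for each array and 1 panel for each of the 7 pairs. The groups do not overlap for PSMB9 minus PSMB6, TAP1 minus TAP2, ERAP1 minus ERAP2 and HLA-E minus B2M. Each of these had an exact permutation p of 0.1, or 0.175 after Benjamini-Hochberg adjustment over the 7 pairs. The panels use the highest probe set of each gene. With the mean of all probe sets these pairs changed, in the same order, by 1.27, -0.07, -0.04 and -0.11.

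Peptide loading was represented by TAPBP, which encodes tapasin, the bridge between the transporter and the class I molecule. Its highest probe set read 9.74, 9.41 and 9.56 on the controls and 9.88, 9.23 and 9.21 on the MBD2 arrays, with MBD2 array 1 above all controls and the other pair below them. The log2 fold change was -0.13 (interval -0.65 to 0.39, limma adjusted p = 0.815). The other 2 TAPBP probe sets, between 5.11 and 6.17, differed by -0.21 and -0.01.

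Trimming was represented by ERAP1 and ERAP2, aminopeptidases of the endoplasmic reticulum that shorten peptides to the length class I molecules hold. The ERAP1 probe sets disagreed. The one with the highest signal read 8.13, 7.84 and 7.70 on the controls and 6.82, 7.25 and 7.22 on the MBD2 arrays, lower in all 3 MBD2 arrays. Its means of 7.89 ± 0.22 (SD, n = 3) and 7.10 ± 0.24 (SD, n = 3) differed by -0.79 (standard error 0.18, interval -1.23 to -0.36, limma adjusted p = 0.0993), and of the 27 probe sets it had the lowest p. A second read 4.90, 5.38 and 4.94 on the controls and 5.53, 5.90 and 5.85 on the MBD2 arrays, higher in all 3 by 0.69 (interval 0.25 to 1.13, limma adjusted p = 0.141). Another read 5.28, 5.29 and 5.09 against 5.39, 6.01 and 5.69, also higher in all 3, by 0.47 (limma adjusted p = 0.270). These 3 probe sets pointed in opposite directions with groups that did not overlap, and all 3 passed without MBD2 array 1, at -0.66, 0.81 and 0.63. The other 2 differed by 0.12 and 0.05, the latter near background. The mean of the 5 probe sets differed by 0.11, so no single direction holds for ERAP1 as a gene.

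ERAP2, the neighbour of ERAP1 on chromosome 5, was low throughout. Its highest probe set read 4.42, 4.72 and 4.49 on the controls and 4.54, 5.19 and 4.79 on the MBD2 arrays, a difference of 0.29 with overlapping groups (limma adjusted p = 0.502). The other 4 probe sets were near background on all arrays and differed by -0.13 to 0.24. ERAP1 minus ERAP2 changed by -1.09 (exact permutation p = 0.1) with the highest probe sets and by -0.04 when the probe sets of each gene were averaged.

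Presentation was represented by B2M, the light chain common to class I molecules, and HLA-E, a heavy chain that displays peptides from other class I leader sequences to natural killer cells. The highest B2M probe set read 13.87, 13.91 and 13.51 on the controls and 13.98, 13.44 and 13.57 on the MBD2 arrays. The groups overlapped, and the log2 fold change was -0.10 (interval -0.56 to 0.37, limma adjusted p = 0.845). A second read 12.40, 12.30 and 12.04 against 12.59, 11.42 and 11.48, a difference of -0.41 (interval -1.23 to 0.41), with MBD2 array 1 the highest of all 6 arrays and the other pair the lowest. The last had the same order, at 6.93, 7.11 and 6.15 against 7.87, 5.60 and 5.61, and MBD2 array 1 was 2.27 log2 units above the mean of MBD2 arrays 2 and 3. Without MBD2 array 1 the second B2M probe set fell by 0.79 (limma adjusted p = 0.0230). In that fit the highest B2M probe set differed by -0.26 (limma adjusted p = 0.357) and did not pass. Nor did the last, at -1.13 (limma adjusted p = 0.0651).

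HLA-E had 2 probe sets with the _x_at ending, some probes of which can match transcripts of other genes, and 1 without it. The first read 11.96, 11.78 and 11.73 on the controls and 11.82, 11.12 and 11.10 on the MBD2 arrays, a difference of -0.48 (interval -1.02 to 0.06, limma adjusted p = 0.350). The second read 11.22, 11.04 and 10.70 against 11.20, 10.10 and 10.06, a difference of -0.53 (limma adjusted p = 0.495). In both, MBD2 arrays 2 and 3 were below all controls and MBD2 array 1 lay among them, and without it they fell by 0.72 and 0.91 (limma adjusted p = 0.0179 and 0.0281). The probe set without that ending read 8.92, 8.58 and 8.85 against 8.68, 8.44 and 8.62, a difference of -0.21 (limma adjusted p = 0.502), and of -0.26 without MBD2 array 1 (limma adjusted p = 0.325). The probe sets of HLA-B and HLA-C, all with the same ending, also had MBD2 array 1 above MBD2 arrays 2 and 3 in each of the 7, but in most of them MBD2 array 3 was above control array 3 and MBD2 array 1 above all controls. The highest of HLA-C read 12.40, 12.37 and 11.59 on the controls and 12.75, 11.46 and 11.73 on the MBD2 arrays. HLA-E minus B2M changed by -0.38 with groups that did not overlap (exact permutation p = 0.1) and by -0.11 with the mean of all probe sets.

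The regulator NLRC5 had 1 probe set, at 6.19, 6.39 and 5.86 on the controls and 6.16, 6.21 and 6.24 on the MBD2 arrays. The MBD2 arrays lay within the range of the controls, and the log2 fold change was 0.06 with an interval of -0.32 to 0.43 (limma adjusted p = 0.890). The interval ran from a 1.25-fold lower to a 1.35-fold higher level.

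The wider pathway was described by lists of further genes, each gene taken at its highest probe set, of which 2.32% passed over all 19775 genes, while 9.79% were lower and 8.83% higher at an unadjusted limma p under 0.05. The counts at that unadjusted p below are read beside these shares. Of 9 measured class I heavy chains and relatives of 10 listed, none passed, 1 was higher at an unadjusted limma p under 0.05, and the median log2 fold change was -0.11. The gene was MICB, a stress-induced ligand of the NKG2D receptor, at 9.69, 9.66 and 8.97 on the controls and 9.89, 10.38 and 10.37 on the MBD2 arrays, higher in all 3 by 0.77 (limma adjusted p = 0.212). MR1, which presents vitamin B metabolites, had 6 probe sets, all with negative fold changes of -0.25 to -1.53. The highest, which alone entered the count, differed by -0.95 with overlapping groups (limma adjusted p = 0.454). Those at -1.53, -1.52 and -0.82 were lower in all 3 MBD2 arrays (limma adjusted p = 0.0952, 0.0805 and 0.222). CD1D, which presents lipids, differed by 0.28.

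Of 7 loading and folding genes none passed, 1 was lower at an unadjusted limma p under 0.05, and the median was -0.15. ERP29, an endoplasmic reticulum protein of the disulfide isomerase family, read 11.33, 11.38 and 10.84 on the controls and 10.70, 10.55 and 10.52 on the MBD2 arrays, lower in all 3 by a difference of -0.59 (limma adjusted p = 0.172). CALR, the chaperone calreticulin, differed by -0.67 (limma adjusted p = 0.345) and TAPBPL, a relative of tapasin, by -0.15. Without control array 3 and MBD2 array 1, 4 of these 7 genes fell, namely CALR, CANX, ERP29 and PDIA3, named after their values were seen, and none rose, beside 10.7% and 16.7% of all genes, and 6 of the 9 heavy chains and relatives fell and 1 rose.

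Of 10 measured peptide generation genes of 12 listed none passed, 1 was higher at an unadjusted limma p under 0.05, and the median was 0.16. BLMH, a cytosolic aminopeptidase, read 7.49, 7.71 and 7.54 on the controls and 7.95, 8.19 and 8.45 on the MBD2 arrays, higher in all 3 by 0.61 (limma adjusted p = 0.134). NPEPPS, another cytosolic aminopeptidase, differed by -0.47.

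Of 23 measured regulators of 25 listed none passed, with 3 lower and 2 higher at an unadjusted limma p under 0.05 and a median of -0.08. RFXAP, a subunit of the RFX complex, read 4.83, 4.86 and 5.21 on the controls and 5.60, 6.86 and 6.89 on the MBD2 arrays, higher in all 3 by 1.48 (limma adjusted p = 0.131), while its other probe set differed by -0.03. NFYA, a subunit of NF-Y, differed by -0.60 and STAT3, a cytokine-activated factor, by -1.02, with other probe sets of each between -0.20 and 0.15.

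Class II genes, whose products present peptides from outside the cell, served as a comparison. Of 11 measured of 12 listed none passed, with 3 lower at an unadjusted limma p under 0.05 and a median of -0.20. HLA-DOB, which lies next to TAP2, read 6.15, 6.38 and 6.39 on the controls and 5.78, 5.46 and 5.58 on the MBD2 arrays, lower in all 3 by a difference of -0.70 (limma adjusted p = 0.0670), while its other probe set differed by -0.13. HLA-DOA and HLA-DRB1 differed by -0.38 and -0.55.

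Of 20 interferon-stimulated genes 1 rose and none fell, with a median of 0.06. At an unadjusted limma p under 0.05, 3 were lower and 5 higher, beside 9.79% and 8.83% of all genes. The gene that rose was IFIT3, an antiviral RNA-binding protein gene, at 6.63, 6.47 and 5.92 on the controls and 8.26, 8.10 and 7.97 on the MBD2 arrays. Its log2 fold change was 1.77 (limma adjusted p = 0.0240), while its other probe set differed by 0.16. The IFIT3 call was lost when control array 1, control array 2, MBD2 array 2 or MBD2 array 3 was dropped, with limma adjusted p-values of 0.0937, 0.121, 0.101 and 0.116 and log2 fold changes of 1.92, 1.83, 1.77 and 1.84. ISG15, a ubiquitin-like modifier, was higher in all 3 MBD2 arrays by 0.52 (limma adjusted p = 0.166). OAS1, an RNA-activated synthetase, was lower in all 3, at 6.83, 5.97 and 5.67 against 7.51, 7.78 and 9.13 in control arrays (limma adjusted p = 0.136).

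Without control array 3 and MBD2 array 1, a fit in which 10.7% of all genes fell and 16.7% rose, 1 peptide generation gene fell and 5 rose, 4 regulators fell and 3 rose, 1 class II gene fell, and 6 interferon-stimulated genes fell and 4 rose.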

How the data were processed

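The authors deposited log2 values, 1 for each probe set and array, from Affymetrix Human Genome U133 Plus 2.0 arrays. RMA and the affy package are named in the processing notes of the submitters, and their versions and parameters are not given in the sources used here. RMA brings the arrays to a common distribution, and the median of every array was 5.24, so a shift shared by most transcripts would not be seen. Arrays give no read depth, and their number (3 in each group) limits the precision.

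The 41091 probe sets with exactly 1 symbol in the platform annotation were fitted together in R 4.3.3 with limma 3.58.1 (lmFit and eBayes, group being the sole term), with Benjamini-Hochberg adjustment over all of them. The 1801 probe sets with several symbols, the 11721 with none and the 62 array controls were left out. A probe set passed at an adjusted p under 0.05 and at least 1.5-fold. Differences within arrays were tested by exact two-sided permutation over the 6 arrays. The script was tested on simulated data.

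The 10 genes, the lists and the tests were chosen with earlier results of these data known. Named were the 10 genes with every probe set, MBD2, the partner proteasome subunits, and in each list the up to 3 genes with the lowest p and any that passed. Cell type markers, HLA-B and HLA-C were named as checks. The group of each array came from its treatment label. The alternatives were other rules for probe sets, a minimum mean of 5, housekeeping centring, repeated quantile normalization, a trended robust fit, a replicate block, averaged or left-out arrays, other fold thresholds and the fold rule of the study's methods. Counts of the pathway lists without MBD2 array 1, and without it and control array 3, were added after seeing the data.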

Additional observations from a re-analysis of the deposited data

How the results depend on the processing

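No class I processing probe set passed in the limma fit of all arrays, and none passed under another rule for probe sets, centring, normalization, trended fit, replicate block, fold threshold or the fold rule of the methods. With each array left out in turn 0 to 4 passed as lower and 0 to 3 as higher, and without control array 3 and MBD2 array 1 9 and 3. Over all features 771 of 41091 passed, against 449 of 19775 when probe sets were averaged by gene and 491 of 26777 without shared-sequence endings. Of all 41091, 1805 passed by the methods' rule, 10474 without both arrays, and 20 to 5540 with each array left out. When the near-identical arrays were averaged, limma passed 0 of 41091, with 2747 at an unadjusted p under 0.05, 2 of them class I processing probe sets. Of 434 fold changes under the alternatives 396 kept their direction and side of the threshold, 20 passed and 18 changed sign, and the cause was not tested. Among these sign changes, ERAP1 was 0.11 with the mean of probe sets. Differences between paired genes are not among the 434. With the mean of probe sets TAP1 minus TAP2 and PSMB10 minus PSMB7 changed sign, to -0.073 and 0.088. Centring on housekeeping genes, which moved the median of all probe sets to -0.09, gave NLRC5 -0.033 and the lowest ERAP1 probe set -0.043. Averaging gave the B2M probe sets of highest and lowest signal 0.044 and 0.16, PSMB8 -0.026 and the lowest TAP2 probe set 0.048. Without both arrays NLRC5 was -0.064 and the lowest TAPBP probe set 0.091. With each array left out, ranges crossed 0 for NLRC5 (-0.085 to 0.18), PSMB8 (-0.057 to 0.43), 2 B2M probe sets (-0.26 to 0.016 and -1.13 to 0.015), the lowest of TAP2 (-0.20 to 0.10) and of TAPBP (-0.088 to 0.13), and PSMB10 minus PSMB7 (-0.31 to 0.19). Other ranges were 0.02 to 0.29 for PSMB8 minus PSMB5, 1.06 to 1.68 for PSMB9 minus PSMB6, 0.20 to 0.41 for TAP1 minus TAP2, -1.20 to -0.91 for ERAP1 minus ERAP2 and -0.47 to -0.30 for HLA-E minus B2M. With the replicate number as a block 24 features passed and no class I processing probe set did. Deviations from the group mean of arrays with the same number correlated at 0.23, -0.35 and 0.30. Control arrays 1 and 2, and MBD2 arrays 2 and 3, were nearly identical, so these values mainly set the odd array of each group against the others. They cannot show whether the numbers pair the arrays.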
